A study of Mus musculus with 4 samples.

Results

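The 6 miRNA arms described here were mmu-miR-33-5p, mmu-miR-33-3p, mmu-miR-103-3p, mmu-miR-107-3p, mmu-miR-378a-3p and mmu-miR-378a-5p, taken by name out of 1038 known mouse miRNAs. They are made from hairpins that lie within introns of genes of lipid and energy metabolism. Small RNA of the medial prefrontal cortex, taken from both sides of the brain, was sequenced from juvenile C57BL/6 mice (substrain C57BL/6J in the study's methods) under chronic unpredictable mild stress (CUMS) and from control mice, with 2 libraries per group. The CUMS mice were those stressed animals that changed in all of the study's behaviour tests, so that the group was selected for depression-like behaviour, and the controls were not stressed. RNA was extracted mouse by mouse, and the study's methods speak of biological duplicates. Neither they nor the labels say that each library was 1 mouse. The p-values below therefore measure only the spread between the libraries, which cannot be taken as that between mice.

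A miRNA hairpin is cut into a 5p and a 3p arm, of which the more stable one usually guides the silencing complex to messenger RNAs that match its seed, the bases next to the 5′ end. miR-33 is carried by Srebf2, the gene of the sterol-sensing transcription factor that switches on cholesterol synthesis, and represses Abca1, the pump by which cells export cholesterol. miR-103 and miR-107 are carried by genes of pantothenate kinases, the enzymes that start coenzyme A synthesis. Both are known for lowering insulin sensitivity through Cav1 and for repressing Dicer1, the enzyme that cuts miRNA hairpins. miR-378a is carried by Ppargc1b, the gene of a coactivator of mitochondrial energy metabolism, and is known for its part in mitochondrial and lipid metabolism.

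The hairpins show where the arms sit and which of them can be told apart. A RefSeq sequence of build GRCm38.p6 was matched for 4 of the 6 arms, namely those of miR-33, miR-103 and miR-107. In the hairpins, printed 5′ to 3′, capitals mark the 5p and the 3p arm.
Mir33 (chr15:82198122-82198190, + strand): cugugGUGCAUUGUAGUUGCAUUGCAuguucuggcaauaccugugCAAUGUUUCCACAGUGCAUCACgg
Mir103-1 (chr11:35782396-35782481, + strand): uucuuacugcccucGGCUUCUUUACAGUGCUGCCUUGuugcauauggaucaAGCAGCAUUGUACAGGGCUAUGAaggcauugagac
Mir103-2 (chr2:131288052-131288137, + strand): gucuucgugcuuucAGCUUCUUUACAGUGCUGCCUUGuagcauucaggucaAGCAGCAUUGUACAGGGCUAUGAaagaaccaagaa
Mir107 (chr19:34820687-34820773, - strand): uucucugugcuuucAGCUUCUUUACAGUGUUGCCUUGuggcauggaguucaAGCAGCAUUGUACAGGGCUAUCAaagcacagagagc
In the GENCODE annotation each of these hairpins lay in an intron of a gene on the same strand. Mir33 lay in Srebf2, Mir103-1 in Pank3, Mir103-2 in Pank2 and Mir107 in Pank1. The messenger RNAs of the host genes were not analysed here.

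The mature arms are shown with the seed (bases 2 to 8) in capitals, since the seed groups the arms by the targets they can share.
mmu-miR-33-5p: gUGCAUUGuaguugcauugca
mmu-miR-33-3p: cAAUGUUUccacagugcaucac
mmu-miR-103-3p: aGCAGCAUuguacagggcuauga
mmu-miR-107-3p: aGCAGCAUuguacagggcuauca
mmu-miR-103-3p and mmu-miR-107-3p were identical at 22 of 23 bases and differed by G22C, counted from the 5′ end of mmu-miR-103-3p. Among the miRNAs of the table with a matched sequence, they were the 2 with the seed GCAGCAU. No other of these shared the seed of mmu-miR-33-5p or of mmu-miR-33-3p. The miR-378a arms had no matched sequence and were not covered. A read that ends before base 22 matches both mmu-miR-103-3p and mmu-miR-107-3p. The study accepted reads that overlapped a mature miRNA by at least 16 bases, and how it assigned reads that match both is not given in the sources used here, so the split of reads between these arms is uncertain. Both Mir103 hairpins give the same mmu-miR-103-3p and cannot be told apart from it.

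Stretches of 3′ UTR around seed matches of the known targets named above are shown because they place the seeds on those transcripts. Capitals mark the match to bases 2 to 8, and build GRCm38 was used.
Abca1 (chr4:53033783-53033812, - strand): tattCAATGCAATGCActtCAATGCAacga
Dicer1 (chr12:104690162-104690184, - strand): ttcatgtaATGCTGCacttaggt
Cav1 (chr6:17341261-17341283, + strand): acttttttATGCTGCatgtccta
The longest annotated 3′ UTR of Abca1 held 3 matches to the miR-33-5p seed, CAATGCA, all in this stretch, and the first 2 of them overlap by 2 bases. Dicer1 and Cav1 held 1 match each to the seed shared by mmu-miR-103-3p and mmu-miR-107-3p, ATGCTGC. Only the strand of the transcript was searched. Of 20987 genes with a 3′ UTR, 7.07% held CAATGCA and 11.2% held ATGCTGC, so that such matches are common and serve here as a description.

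The libraries held 9589323 to 10783592 reads on known miRNAs, so that 3 reads, used as the floor of detection, stood for 0.278 to 0.313 reads per 1000000 (CPM). Values are reads divided by the library's size factor (0.944 to 1.06), called normalized reads, unless CPM is named. Within each group the libraries are named a and b, since their replicate numbers could not be traced. Neuron miRNAs (miR-9-5p, miR-124-3p and miR-128-3p) summed to 64442 to 91969 CPM, as the labelled tissue should hold. Control library b stood apart: 14 arms of the miR-183, miR-96, miR-182 and miR-200 families, known from epithelia and sensory cells, took 9.32% of its reads and 0.0393% to 0.0722% of the reads of the other libraries. With CPM taken over the total without these families, the log2 ratio of CUMS to control was 0.40 for mmu-miR-33-5p, 1.90 for mmu-miR-33-3p, 0.11 for mmu-miR-103-3p, 0.07 for mmu-miR-107-3p, 0.07 for mmu-miR-378a-3p and -1.78 for mmu-miR-378a-5p, close to the values below. The log2 ratios of these 6 arms are also given without that library, but those of the other miRNAs are not. In tissue RNA, fewer cells of a type and less RNA per cell cannot be told apart.

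The 6 arms together took 0.461% and 0.407% of all miRNA reads in the controls, against 0.455% and 0.513% under CUMS. Their levels spanned more than 3 orders of size. By the mean over both groups, mmu-miR-103-3p ranked 48 of the 1038 miRNAs, mmu-miR-378a-3p 64, mmu-miR-107-3p 72 and mmu-miR-33-5p 261, whereas mmu-miR-378a-5p ranked 559 and mmu-miR-33-3p 577. mmu-miR-378a-3p and mmu-miR-107-3p were neighbours in this order, and mmu-miR-378a-3p was the higher of the pair in each of the 4 libraries. At the low end the order changed with the group, since mmu-miR-378a-5p was the higher of the rare arms in both control libraries and mmu-miR-33-3p in both CUMS libraries. Levels of different miRNAs are compared here as reads, with no correction for how well each is captured.

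**Figure D1:**
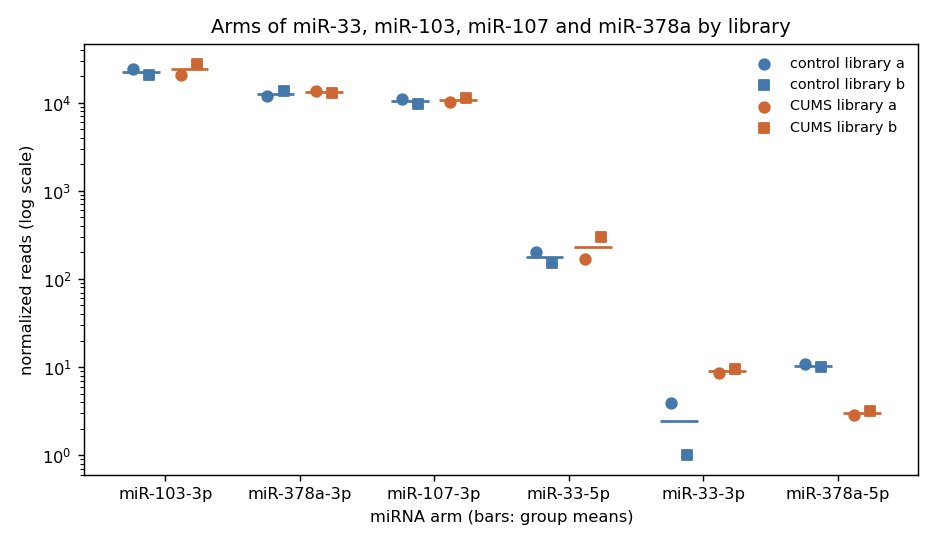
Normalized reads (log scale) of the 6 arms in each of the 4 libraries, with bars at the group means. The 4 abundant arms have groups that overlap, whereas mmu-miR-33-3p is higher and mmu-miR-378a-5p lower in both CUMS libraries, at levels under 11 normalized reads.

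Between CUMS and control, the abundant arms differed little. The ratio of the group means was 1.31 for mmu-miR-33-5p, 1.07 for mmu-miR-103-3p, 1.05 for mmu-miR-107-3p and 1.04 for mmu-miR-378a-3p, and for each of these arms the groups overlapped. The 2 rare arms were past 1.5-fold, mmu-miR-33-3p at 3.67-fold higher and mmu-miR-378a-5p at 3.46-fold lower in CUMS. Each rested on 11 reads or fewer per library. This fold is only a part of the study's criterion, which also asked for a DESeq p-value under 0.05. The study left out miRNAs of fewer than 5 reads and listed neither arm as changed. None of the 6 arms passed an adjusted p of 0.05. In the quasi-likelihood test of edgeR on the reads of each library, 0 of 719 miRNAs passed, a share of 0%, and 30 (4.17%) had an unadjusted p under 0.05, none of them among the 6 arms. DESeq2 also called 0, with 24 at an unadjusted p under 0.05.

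The count of 2 of 6 arms past 1.5-fold is read against 25.6% of the 628 miRNAs that reached a mean of 5 in either group. Both arms were rare, and of the 168 miRNAs whose higher group mean was 5 to 20, 62.5% were past 1.5-fold. Of the 347 miRNAs whose means were 50 or more in each group, 5.19% were past it, and none of the 4 abundant arms was. The median log2 ratio was 0.08 over the 6 arms and 0.02 over the 628 miRNAs. At the level of reads of the rare arms such folds were thus common, and their count is no result about the arms.

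**Figure D2:**
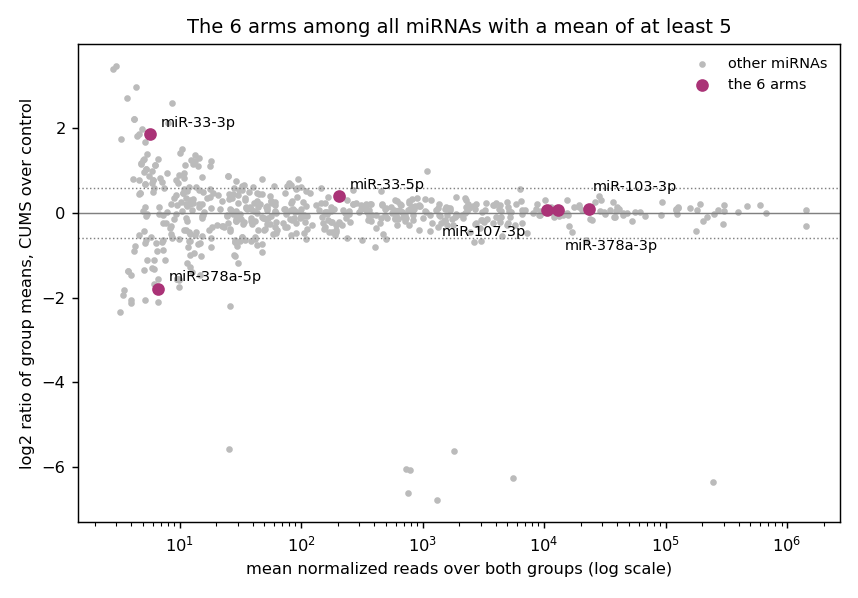
The log2 ratio of the group means (CUMS over control) against the mean normalized reads over both groups (log scale) for miRNAs that reached a mean of 5 in either group and had reads in both, with dotted lines at 1.5-fold. The scatter widens toward few reads, where mmu-miR-33-3p (1.87) and mmu-miR-378a-5p (-1.79) sit, and the 4 abundant arms lie between the lines. The lowest points are arms of the families in which control library b stood apart.

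mmu-miR-33-5p, the arm that represses cholesterol export, was read 208 and 150 times in the controls, against 177 and 280 times under CUMS. CUMS library b was the highest, and CUMS library a lay between the control libraries. As normalized reads the groups had 177 ± 37.8 (SD, n = 2) in control and 232 ± 91.9 (SD, n = 2) in CUMS, a log2 ratio of 0.39. The exact two-sided permutation test gave p = 0.667, where 2 libraries against 2 cannot give less than 0.333. With DESeq2 the log2 difference was 0.38 with a 95% interval of -0.32 to 1.09 (adjusted p = 0.998), and the adjusted p of edgeR was 0.912. The difference rested on CUMS library b: without it the log2 ratio was -0.084. Without control library b it was 0.19.

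mmu-miR-33-3p, the other arm of the same hairpin, was read 4 and 1 times in the controls, against 9 and 9 times under CUMS. The CUMS values thus exceeded those of the controls without overlap. In CPM these were 0.380 (95% Wilson interval 0.148 to 0.976) and 0.0927 (0.0164 to 0.525) against 0.863 (0.454 to 1.64) and 0.939 (0.494 to 1.78). The interval of each CUMS library overlapped those of both control libraries, and control library b was under the floor of 3 reads. The reads were not tagged as single molecules, so these intervals and the floor cover counting error only. The log2 ratio was 1.87, the exact permutation p was 0.333, and the adjusted p was 0.849 with edgeR. The 95% interval of DESeq2 ran from -1.19 to 4.92. The groups were separated in this direction for 16.7% of the 719 miRNAs with 5 or more reads in some library. Leaving out control library a raised the log2 ratio to 3.17, with 1 read left in the control group, and leaving out control library b lowered it to 1.20.

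mmu-miR-103-3p, the most abundant of the 6 arms, was read 24967 and 20596 times in the controls, against 21736 and 26235 times under CUMS. The CUMS libraries held the highest value and, after normalization, also the lowest. After normalization the groups had 22505 ± 2711 (SD, n = 2) in control and 24131 ± 5184 (SD, n = 2) in CUMS, a log2 ratio of 0.10. The exact permutation test gave p = 1. DESeq2 put the log2 difference at 0.10 with a 95% interval of -0.31 to 0.50, and the adjusted p of edgeR was 0.962. Without CUMS library b the log2 ratio was -0.14, and without control library b it was -0.02.

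mmu-miR-107-3p, which differs from it by 1 base, was read 11249 and 9647 times in the controls, against 10937 and 10666 times under CUMS. The CUMS libraries both lay between the control libraries in reads. As normalized reads the groups were 10323 ± 961.7 (SD, n = 2) and 10799 ± 709.2 (SD, n = 2), a log2 ratio of 0.07 with an exact permutation p of 0.667. The 95% interval of DESeq2 was -0.29 to 0.41 and the adjusted p of edgeR 0.982. Without control library b the log2 ratio was -0.03. mmu-miR-103-3p exceeded mmu-miR-107-3p by 2.22 and 2.13 times in the controls and by 1.99 and 2.46 times under CUMS. The log2 of this ratio differed between the groups by 0.02 (pooled SD 0.16, exact permutation p = 1). With the reads of both arms summed, which removes the uncertain split, the log2 ratio of CUMS to control was 0.09.

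mmu-miR-378a-3p, the abundant arm of its hairpin, was read 12117 and 13452 times in the controls, against 14535 and 12005 times under CUMS. Reads were highest in CUMS library a and lowest in CUMS library b, so that the CUMS values enclosed those of the controls. As normalized reads the groups were 12649 ± 1127 (SD, n = 2) and 13203 ± 683.1 (SD, n = 2), and CUMS library b then lay between the control libraries. The log2 ratio was 0.06 with an exact permutation p of 0.667, a 95% interval of -0.29 to 0.41 in DESeq2 and an adjusted p of 0.982 in edgeR. Without control library a it was -0.03, and without control library b 0.16. For mmu-miR-103-3p, mmu-miR-107-3p and mmu-miR-378a-3p the intervals all lay within 1.5-fold in either direction, whereas that of mmu-miR-33-5p reached past it.

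**Figure D3:**
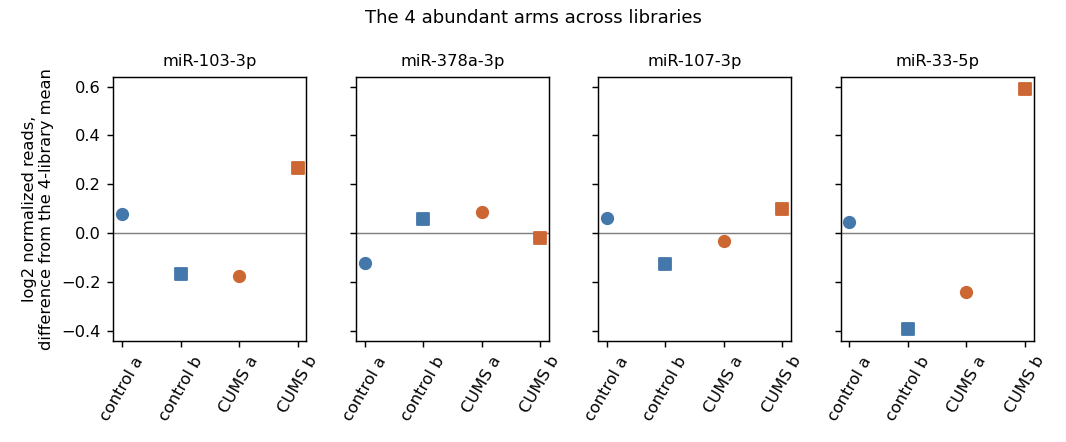
Log2 normalized reads of the 4 abundant arms in each library as the difference from the arm's own mean over the 4 libraries, with points in blue for control and in orange for CUMS. CUMS library b is the highest for mmu-miR-103-3p, mmu-miR-107-3p and mmu-miR-33-5p but not for mmu-miR-378a-3p, and CUMS library a lies below control library a for those 3 arms.

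mmu-miR-378a-5p was read 11 and 10 times in the controls, against 3 and 3 times under CUMS, where it was at the floor. The CUMS values thus lay under those of the controls without overlap, as was the case for 17.1% of the 719 miRNAs. In CPM the control libraries had 1.04 (95% Wilson interval 0.583 to 1.87) and 0.927 (0.504 to 1.71) and the CUMS libraries 0.288 (0.0978 to 0.846) and 0.313 (0.106 to 0.920), so that the intervals overlapped. The log2 ratio was -1.79 with an exact permutation p of 0.333. The edgeR test gave an unadjusted p of 0.0733 and an adjusted p of 0.849, and the interval of DESeq2 ran from -4.55 to 0.96. Leaving out any 1 library kept the log2 ratio between -1.88 and -1.71, with -1.84 without control library b. The oligodendrocyte miRNAs, all 3 of which were lower in both CUMS libraries, summed to 765 and 776 CPM in the controls, against 628 and 722 CPM under CUMS, and the muscle miRNAs (miR-1a-3p and miR-133a-3p) to 21.9 and 32.3 CPM, against 19.8 and 19.4 CPM. The muscle sum was carried by miR-133a-3p, which was lower in both CUMS libraries, while miR-1a-3p had 2 and 0 reads against 0 and 8. Other cell type sums did not fall in this way. Endothelium miRNAs had 1329 and 1183 CPM in the controls, against 1326 and 1453 under CUMS. Microglia and leukocyte miRNAs had 139 and 114 CPM, against 142 and 161. Red cell miRNAs had 11621.5 and 10684.3 CPM, against 11670.8 and 13309.9. The separations of single marker miRNAs are read against the same 17.1%. The part of any of these cell types in the difference was not tested. Among the 168 miRNAs with a higher group mean of 5 to 20, the groups did not overlap, in one direction or the other, for 40.5%, which is the background for both this arm and mmu-miR-33-3p.

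**Figure D4:**
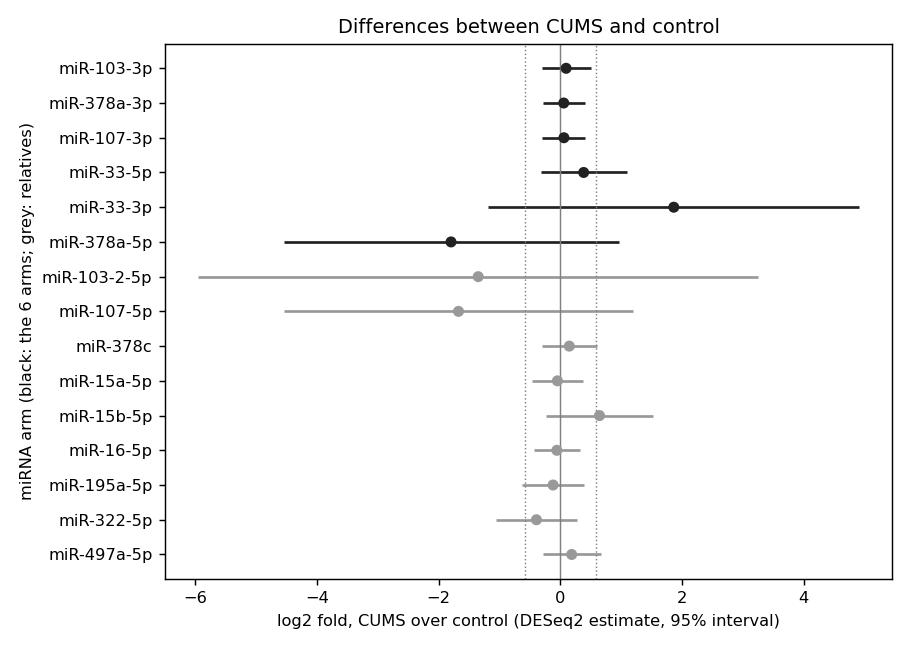
DESeq2 log2 differences (CUMS over control) with 95% intervals for the 6 arms (black) and for related miRNAs with 5 or more reads in some library (grey), with dotted lines at 1.5-fold. Every interval holds 0, and the intervals of mmu-miR-33-3p and mmu-miR-378a-5p are several times wider than those of the abundant arms.

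The ratio of the arms of a hairpin is measured within a library and does not depend on the scaling between libraries. For miR-33, the 3p arm made up 1.89% and 0.662% of the reads of both arms in the controls, against 4.84% and 3.11% under CUMS. The share was higher in both CUMS libraries, and the log2 ratio of the 5p to the 3p arm was lower by 1.84 (pooled SD 0.83, exact permutation p = 0.333). For miR-378a, the 5p arm made up 0.0907% and 0.0743% of the control reads, against 0.0206% and 0.0250% under CUMS. Its share was lower in both CUMS libraries, and the log2 ratio of the 3p to the 5p arm was higher by 1.85 (pooled SD 0.20, exact permutation p = 0.333). This SD comes from 2 libraries per group, with 3 reads of the 5p arm in each CUMS library. It may understate the counting error, so the difference is not read in units of it. The share of the minor arm was thus larger for miR-33 and smaller for miR-378a in 2 of 2 CUMS libraries, on 1 to 11 reads of the minor arm per library. In normalized reads, 40.5% of the 168 miRNAs with a higher group mean of 5 to 20 had groups that did not overlap. No such background was computed for the shares of arms.

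The minor arms of the other hairpins were as rare. mmu-miR-107-5p was read 9 and 10 times in the controls, against 4 and 2 times under CUMS. Its groups did not overlap, its log2 ratio was -1.68, and the adjusted p of edgeR was 0.849. Of the 168 miRNAs with a higher group mean of 5 to 20, 40.5% had groups that did not overlap. mmu-miR-107-5p made up 0.0799% and 0.104% of the reads of the miR-107 hairpin in the controls, against 0.0366% and 0.0187% under CUMS. mmu-miR-103-2-5p had 1 and 7 reads against 0 and 3, and mmu-miR-103-1-5p had 0 and 0 against 0 and 2, for which no fold is given. These 5p arms alone would tell the Mir103 hairpins apart, by G1A, and 0 to 7 reads per library do not allow it. Over mmu-miR-33-3p, mmu-miR-378a-5p and these 3 arms, the reads summed to 25 and 28 in the controls, against 16 and 19 under CUMS. mmu-miR-33-3p and mmu-miR-103-1-5p did not share this direction. No background was computed for such a sum, so it says nothing of minor arms as a class.

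**Figure D5:**
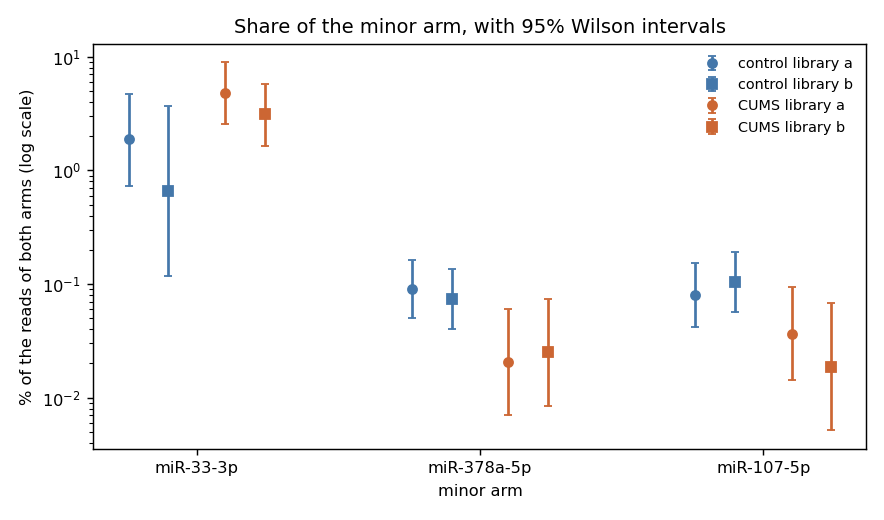
Reads of the minor arm as a percentage of the reads of both arms (log scale) for the hairpins of miR-33, miR-378a and miR-107 in each library, with 95% Wilson intervals that cover counting error only. The CUMS libraries are higher for miR-33-3p and lower for miR-378a-5p and miR-107-5p, and intervals of the groups overlap in each case.

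Of the other miRNAs named for the miR-378 family, mmu-miR-378c was read 499 and 549 times in the controls, against 596 and 559 times under CUMS. After normalization the groups did not overlap and CUMS was the higher, as for 16.7% of the 719 miRNAs. The log2 ratio was 0.15 and the edgeR adjusted p 0.931. mmu-miR-378b had 2 and 1 reads against 4 and 3. The ratios of both were above 1, as was that of mmu-miR-378a-3p, whereas that of mmu-miR-378a-5p was below it. No test called mmu-miR-378c, and mmu-miR-378b had too few reads to be fitted. No sequence of the miR-378 arms was matched here. Whether some reads fit both mmu-miR-378a-3p and mmu-miR-378c was therefore not checked.

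Bases 1 to 7 of mmu-miR-103-3p are the seed of the miR-15 and miR-16 family, known for restraining the cell cycle, so that these miRNAs are relatives of miR-103 and miR-107 with a seed shifted by 1 base. mmu-miR-15b-5p is shown as the example.
mmu-miR-15b-5p: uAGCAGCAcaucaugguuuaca
All 6 relatives in the table carried this shifted seed. mmu-miR-15b-5p was read 56 and 73 times in the controls, against 87 and 112 times under CUMS, a log2 ratio of 0.65, and was the 1 relative past 1.5-fold. Its groups did not overlap, and its adjusted p was 0.849 with edgeR. The study listed mmu-miR-15b-5p as raised in CUMS and also reported it raised by quantitative RT-PCR. mmu-miR-322-5p separated in the other direction, with 173 and 176 normalized reads against 118 and 149, a log2 ratio of -0.39 and an edgeR adjusted p of 0.849. Of the 719 miRNAs, 16.7% were separated with CUMS the higher and 17.1% with CUMS the lower. mmu-miR-16-5p, the most abundant relative, had 11896 and 14333 reads against 12057 and 12941, a level close to that of mmu-miR-378a-3p and above that of mmu-miR-107-3p. mmu-miR-15a-5p had 725 and 760 against 722 and 705. The median log2 ratio of the 6 relatives was -0.05.

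The other miRNAs known for the same branches of metabolism included members past 1.5-fold in each list, and in edgeR none of them had an adjusted p under 0.05. Of 13 miRNAs of cholesterol transport with a mean of at least 5, 1 was higher and 4 were lower in CUMS, with a median log2 ratio of 0.05. mmu-miR-26a-5p and mmu-miR-128-3p were the most abundant of these. mmu-miR-144-3p was the higher one at 1.54-fold, with groups that overlapped. The study listed mmu-miR-144-3p as raised too, and reported the same by quantitative RT-PCR. mmu-miR-758-3p, which like miR-33 is known to repress Abca1, was read 592 and 623 times in the controls, against 455 and 336 times under CUMS. Its groups did not overlap, with CUMS the lower as for 17.1% of the 719 miRNAs, and its log2 ratio was -0.62. The groups of the other lower ones, mmu-miR-185-5p, mmu-miR-223-3p and mmu-miR-20a-5p, overlapped.

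Of 9 miRNAs known for insulin and glucose, led by mmu-miR-143-3p and mmu-miR-29a-3p, 0 were higher and 1 was lower, mmu-miR-223-3p, with a median of -0.04. Of 12 miRNAs known for mitochondria and brown fat, led by mmu-miR-27b-3p and mmu-miR-30c-5p, 1 was higher and 1 was lower, with a median of 0.01. The higher one was mmu-miR-499-5p with 2 and 4 reads against 5 and 9 under CUMS, and the lower one was mmu-miR-494-3p with 6 and 11 reads against 4 and 5. The shares past the fold in these lists are read against the 25.6% of all miRNAs with a mean of at least 5.

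The miRNAs with the most similar course over the 4 libraries were sought for each abundant arm among the others with means of 50 or more in each group, by the root mean square difference of centred log2 values. For mmu-miR-33-5p these were mmu-miR-493-5p at 0.08, with 155 and 114 control reads against 123 and 186, and mmu-miR-184-3p at 0.09. For mmu-miR-103-3p they were mmu-miR-190a-5p at 0.02, with 202 and 165 reads against 171 and 216, and mmu-miR-873a-5p at 0.04. The nearest to mmu-miR-107-3p were mmu-miR-23b-3p at 0.0057 and mmu-miR-101b-3p at 0.0092, and those to mmu-miR-378a-3p were mmu-miR-664-5p at 0.02 and mmu-miR-129-5p at 0.03. The arms with the shared seed were not each other's nearest: mmu-miR-107-3p was number 33 of 346 from mmu-miR-103-3p, and mmu-miR-103-3p was number 71 from mmu-miR-107-3p. The nearest were picked out of 346 miRNAs over 4 libraries, and how many would come this close without any link was not tested. The values also share the libraries' depth and scaling.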

How the data were processed

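The authors removed adaptors and other noncoding RNAs, aligned reads of 18 to 25 nt perfectly to miRBase precursors, and summed those on each mature arm. The processing notes name Bowtie, DESeq and mm10, without versions. The deposited signal is a group mean of counts after division by the DESeq size factor of every library. The table also holds the authors' own fold changes and p-values, which were not used. Its columns carry no group names and were assigned by the study's table headings.

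Single-library reads were solved from these means: all 1038 values of both groups (100%) were sums of whole reads times 2 steps within a relative tolerance of 1e-09. For 2 control values another pair came close. Median-of-ratios factors of the recovered reads equalled the size factors derived from the steps. The depth of 9589323 to 10783592 reads per library leaves miRNAs of few reads with a large counting error.

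Since the table holds means, the main value is the log2 ratio of the authors' means, with no test. On the recovered reads edgeR 4.0.16 (quasi-likelihood, TMM) and DESeq2 1.42.0 (Wald test, 95% intervals) were run in R 4.3.3 with Benjamini-Hochberg adjustment. Both covered the 719 miRNAs with 5 or more reads in some library. Other values were computed in Python 3.11.15 with scipy 1.17.1. Other scalings, a pseudocount of 1, other folds and leaving out each library were tried. Hosts and 3′ UTRs came from GENCODE release M21 (GRCm38). Besides the 6 arms, the miRNAs named are their partner arms and families, the 2 most abundant of each metabolic list and those past 1.5-fold with a mean of at least 5, and the 2 nearest in course to each abundant arm. The arms and lists were chosen with earlier results of these data known.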

Additional observations from a re-analysis of the deposited data

How the results depend on the processing

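No direction was reversed for an arm past 1.5-fold. Leaving out 1 library gave log2 ratios of -0.084 to 0.75 for mmu-miR-33-5p (-0.084 without CUMS library b), 1.20 to 3.17 for mmu-miR-33-3p (3.17 without control library a), -0.14 to 0.30 for mmu-miR-103-3p, -0.03 to 0.16 for mmu-miR-107-3p, -0.03 to 0.16 for mmu-miR-378a-3p and -1.88 to -1.71 for mmu-miR-378a-5p. The signs of the 4 abundant arms thus depend on single libraries. The number of arms past 1.5-fold was 2, and 3 at most when 1 library was left out or the fold threshold lowered. With 1 added to both means the log2 ratio of mmu-miR-378a-5p was -1.51. The other scalings and fits, among them CPM without the families in which control library b stood apart, moved no log2 ratio by more than the pooled SD of the libraries. The difference in the log2 ratio of arms ranged from -2.60 to -1.07 for miR-33 and from 1.71 to 2.00 for miR-378a, and that of mmu-miR-103-3p to mmu-miR-107-3p from -0.13 to 0.18. No paired analysis was possible because the recovered libraries carry no replicate numbers. Depth limits the rare arms, which rest on 1 to 11 reads per library, and 2 libraries per group limit all of them.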
